A study of Mus musculus with 78 samples.

Results

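The comparison described here is that of livers from female mice that had eaten 17-alpha-estradiol for 2 months with livers from untreated females of the same age and stock, gene by gene. Its members were the 3 17-alpha-estradiol and 3 control libraries of 6-month females, 6 of the 78 libraries of the study, and the 14816 of 43629 listed genes that had enough counts to be tested. The study sequenced polyadenylated liver RNA from mice under diets, drugs or mutations that lengthen mouse life, with 3 mice per group. All 6 females belonged to UM-HET3, a genetically heterogeneous stock bred from several inbred strains, so that the mice of a group also differ in genotype. Treated females ate the Purina 5LG6 control diet with 17-alpha-estradiol mixed in at 14.4 ppm, and control females ate the Purina 5LG6 diet alone. Males of 6 months on the same regimens (3 and 3 libraries) served as comparators. So did 9 libraries of 6-month females given acarbose (1000 ppm), rapamycin (42 ppm) or Protandim (1200 ppm) in that diet for the same 2 months. The fit of 36 libraries also held 6-month mice of both sexes under 40% calorie restriction for 2 months, and males on these 3 compounds. Control females and males of 12 months gave lists of sex-biased genes. The hour of collection and the stage of the estrous cycle are not given in the sources used here.

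17-alpha-estradiol is the epimer of the main ovarian estrogen 17-beta-estradiol and binds the classical estrogen receptors less tightly. In the liver the main nuclear receptor for estrogens is estrogen receptor alpha, encoded by Esr1, a ligand-activated transcription factor that binds paired copies of a short DNA half-site or acts through partner factors. Hepatic estrogen signalling is known for its effects on lipoprotein genes, lipid synthesis and sex-dependent gene expression. In mice of this stock the compound is known for lengthening the life of males and not of females.

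The 17-alpha-estradiol libraries held 23441355 to 32691964 assigned counts and the control libraries 26304440 to 31973353. The liver label fits the marker levels: 9 hepatocyte genes, Alb and Apoa1 among them, summed to 104452 to 106457 counts per 1000000 (CPM) in treated and 108937 to 112183 in control libraries, and 0 of the 9 passed the test. Kidney, skeletal muscle and adrenal markers summed to at most 1.83 CPM and pancreas markers to at most 8.53 CPM in any of the 6 libraries. Adipose markers did differ, at 29.1, 7.22 and 9.70 CPM in control females 1, 2 and 3 against 2.30 to 3.73 CPM in the treated libraries. Whether carried-over fat tissue had a part in any result was not tested.

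In the edgeR fit 425 of the 14816 genes passed at an adjusted p under 0.05, which is 2.87% of those tested, and 2510 had an unadjusted p under 0.05. Of the 425 passing genes, 219 were higher and 206 lower in 17-alpha-estradiol females, and 76 of the higher but 19 of the lower genes differed at least 2-fold. The median size of a passing difference was 0.65 on the log2 scale, and the median over all genes tested was 0.02. Libraries of the 2 groups did not overlap for 422 of the 425 genes, against 23.7% of all genes tested. The count leaned on single libraries: it was 20 without control female 1, 279 without control female 2, 190 without control female 3, 97 without treated female 1, 180 without treated female 2 and 71 without treated female 3. A core of 18 genes passed in all 6 of these fits, and 13 of them also passed under every other setting tried: Tff3, Apoc2, Grm8, Brip1, Cyp2g1, Kyat1 and Zfyve21 were higher, and Lgals4, Nop58, Paip1, Arf4, Tgoln1 and Elavl1 were lower. Any other gene named below as passing, Picalm excepted, lost its call without control female 1.

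**Figure D1:**
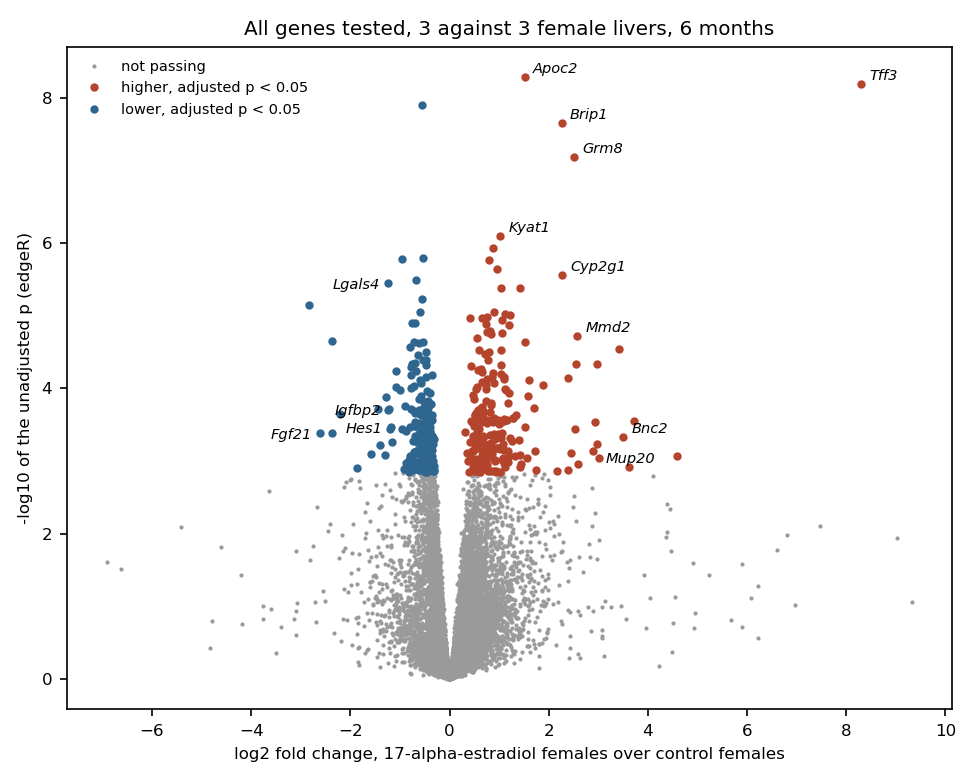
Each point is 1 of the 14816 genes tested, with its log2 fold change (17-alpha-estradiol over control females) on the x axis and -log10 of its unadjusted edgeR p on the y axis. Red and blue points passed at an adjusted p under 0.05, higher and lower; Tff3 lies far to the right at 8.29, and Apoc2 has the smallest p.

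**Figure D2:**
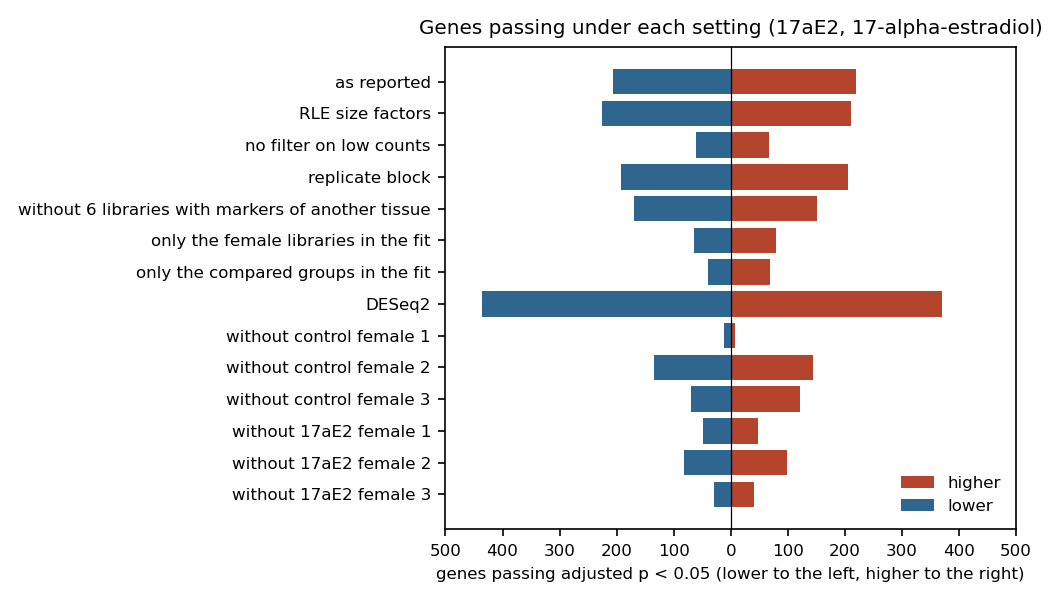
Bars give the number of genes passing at an adjusted p under 0.05 in the female comparison, higher to the right and lower to the left of 0, for the fit as reported and for each alternative. The count falls from 425 to 20 without control female 1 and reaches 807 with DESeq2.

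Tff3, which encodes trefoil factor 3, a small secreted peptide of mucosal surfaces and an estrogen-inducible gene in breast cells, went from nearly no counts to clear expression. It lies at chr17:31125306-31129646 on the minus strand (GRCm38). The treated females had 115, 413 and 262 counts, which are 4.62, 12.6 and 8.29 CPM, and the control females had 1, 0 and 1. The lowest treated library was thus far above the highest control library. Over the group totals the ratio was 407, with an exact 95% interval of 112 to 3370 that covers counting error only. The edgeR estimate was 8.29 ± 1.01 (log2, SE, adjusted p = 4.83e-05); with 2 control counts in all, its size depends on the prior count of the model. Among the 9 libraries of females on the other compounds, Tff3 ranged from 0 to 0.237 CPM. The other trefoil factor genes had too few counts to be tested: Tff1 had 3 to 10 per treated and 2 to 5 per control library, and Tff2 had 0 in all treated and 1 to 3 in control libraries. The promoter table used here has no entry for Tff3.

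The receptor itself did not pass. Esr1 stood at 32.7, 26.0 and 19.3 CPM in treated and 22.1, 22 and 29.9 CPM in control females, a log2 difference of 0.07 ± 0.29 with overlapping groups. The other receptors for estrogens were barely present, with 3 counts in total for Esr2 in each group and 6 against 2 for Gper1, and the estrogen-induced progesterone receptor gene Pgr had 1 against 2. Of 18 tested partners and coregulators of estrogen receptors, 1 passed, as lower, beside 1.39% of all genes. It was Foxa3, a forkhead factor of hepatocytes, at 73.4, 53.8 and 76.1 CPM against 92.8, 109 and 126 (-0.69 ± 0.19, adjusted p = 0.0476). That call was lost without any 1 of the 6 libraries. Nrip1, a corepressor, was at 17.1 to 19.6 CPM in treated and 21.4 to 22.8 in control females, a difference of -0.25 ± 0.19 that did not pass.

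Apoc2 rose in both sexes. It encodes apolipoprotein C-II, the cofactor that lipoprotein lipase needs to clear triglyceride from circulating particles. The treated females had 506, 642 and 584 CPM and the control females 228, 190 and 188, a log2 difference of 1.52 ± 0.18 (adjusted p = 4.83e-05). All treated libraries were above all control libraries by more than 2-fold. In males, which share no library with the females, the values were 987, 924 and 1024 CPM against 180, 185 and 170 (2.46 ± 0.19, adjusted p = 2.91e-09). The difference between the sexes was 0.94 ± 0.26 and did not pass over all genes (adjusted p = 0.153). The neighbouring apolipoprotein genes of the cluster on chromosome 7 did not pass in females: the differences were 0.11 ± 0.20 for Apoe, 0.13 ± 0.17 for Apoc1 and -0.28 ± 0.17 for Apoc4. Apoc2 lies at chr7:19671579-19677941 and overlaps the annotated gene Gm44805 on the same strand, so its counts may hold reads of transcripts that span both.

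Genes called in both sexes numbered 4, all higher: Apoc2, Mmd2, Isyna1 and Bnc2. Mmd2, a membrane protein gene of the progestin and adipoQ receptor family, was at 15.1, 18.5 and 19.3 CPM in treated and 2.86, 2.26 and 3.75 CPM in control females (2.57 ± 0.50, adjusted p = 0.00798). In males Mmd2 was at 10.6, 7.48 and 13.4 CPM against 0.875, 0.880 and 1.51 (3.25 ± 0.53, adjusted p = 0.00821). Isyna1, which encodes the enzyme that makes inositol phosphate from glucose 6-phosphate, was at 16.3, 13.7 and 14.2 CPM against 5.87, 4.90 and 8.24 in females (1.22 ± 0.23) and differed by 1.65 ± 0.23 in males. Without control female 1 the female estimates hardly moved, at 2.53 for Mmd2 and 1.15 for Isyna1, but the adjusted p rose to 0.0640 and 0.0556. Bnc2, a zinc-finger protein gene, rested on 61 counts in treated and 5 in control females, a ratio of 12.6 with a 95% counting interval of 5.11 to 40.1; the males had 145 against 3 counts, a ratio of 56.9 (19.1 to 279). In females Bnc2 passed in 1 of the 6 fits that left out a library, with its adjusted p between 0.0462 and 0.142. In males Bnc2 lost its call without any 1 of the control males or without treated male 2, and in the fits of the compared groups alone or without 6 libraries with markers of another tissue. Male Mmd2 lost its call without control male 1 or 2, with an adjusted p of up to 0.173, while Apoc2 and Isyna1 passed in males under all 12 alternatives run.

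The promoters of Apoc2 and Mmd2, which rose in both sexes, and of Cyp1a2, which passed in females and is described below, are printed because estrogen receptors bind paired half-sites. Each window runs from 250 bases before to 50 bases after the RefSeq transcript start (GRCm38.p6), 5′ to 3′ on the gene's own minus strand: chr7:19677892-19678191 for Apoc2, chr5:142608703-142609002 for Mmd2 and chr9:57683606-57683905 for Cyp1a2. Capitals mark the half-site, GGTCA or its reverse complement TGACC.
Apoc2: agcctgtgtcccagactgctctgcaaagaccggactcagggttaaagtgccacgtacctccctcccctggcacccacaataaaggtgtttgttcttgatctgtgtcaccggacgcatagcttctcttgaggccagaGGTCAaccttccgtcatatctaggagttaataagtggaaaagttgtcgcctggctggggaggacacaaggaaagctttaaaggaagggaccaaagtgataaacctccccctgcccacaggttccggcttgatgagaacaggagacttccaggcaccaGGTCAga
Mmd2: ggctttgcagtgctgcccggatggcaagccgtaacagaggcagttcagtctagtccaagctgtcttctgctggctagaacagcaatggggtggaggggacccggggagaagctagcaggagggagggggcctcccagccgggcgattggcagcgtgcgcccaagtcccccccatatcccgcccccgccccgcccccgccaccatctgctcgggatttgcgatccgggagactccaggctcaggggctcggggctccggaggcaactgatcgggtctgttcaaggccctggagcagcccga
Cyp1a2: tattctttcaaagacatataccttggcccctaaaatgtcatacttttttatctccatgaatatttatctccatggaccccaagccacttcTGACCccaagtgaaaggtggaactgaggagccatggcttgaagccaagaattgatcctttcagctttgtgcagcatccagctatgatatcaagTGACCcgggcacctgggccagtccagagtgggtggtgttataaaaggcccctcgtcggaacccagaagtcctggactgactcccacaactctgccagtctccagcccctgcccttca
Apoc2 has half-sites at 114 bases before the start (position -114) and at position 44 of the transcript, Cyp1a2 has them at -160 and -67, and the Mmd2 window has none. The full palindromic estrogen response element, GGTCA and TGACC with any 3 bases between them, stood in 23 of 32851 promoters of all genes (0.0700%), in 0 of 244 promoters of genes that rose and in 0 of 199 of genes that fell. At so low a share, sets of this size would be likely to hold none in any case, so these counts decide nothing. At least 1 half-site stood in 40.5% of all promoters, 38.5% of those of genes that rose and 36.2% of those of genes that fell. These are matches of letters in a window of 300 bases and say nothing of binding.

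**Figure D3:**
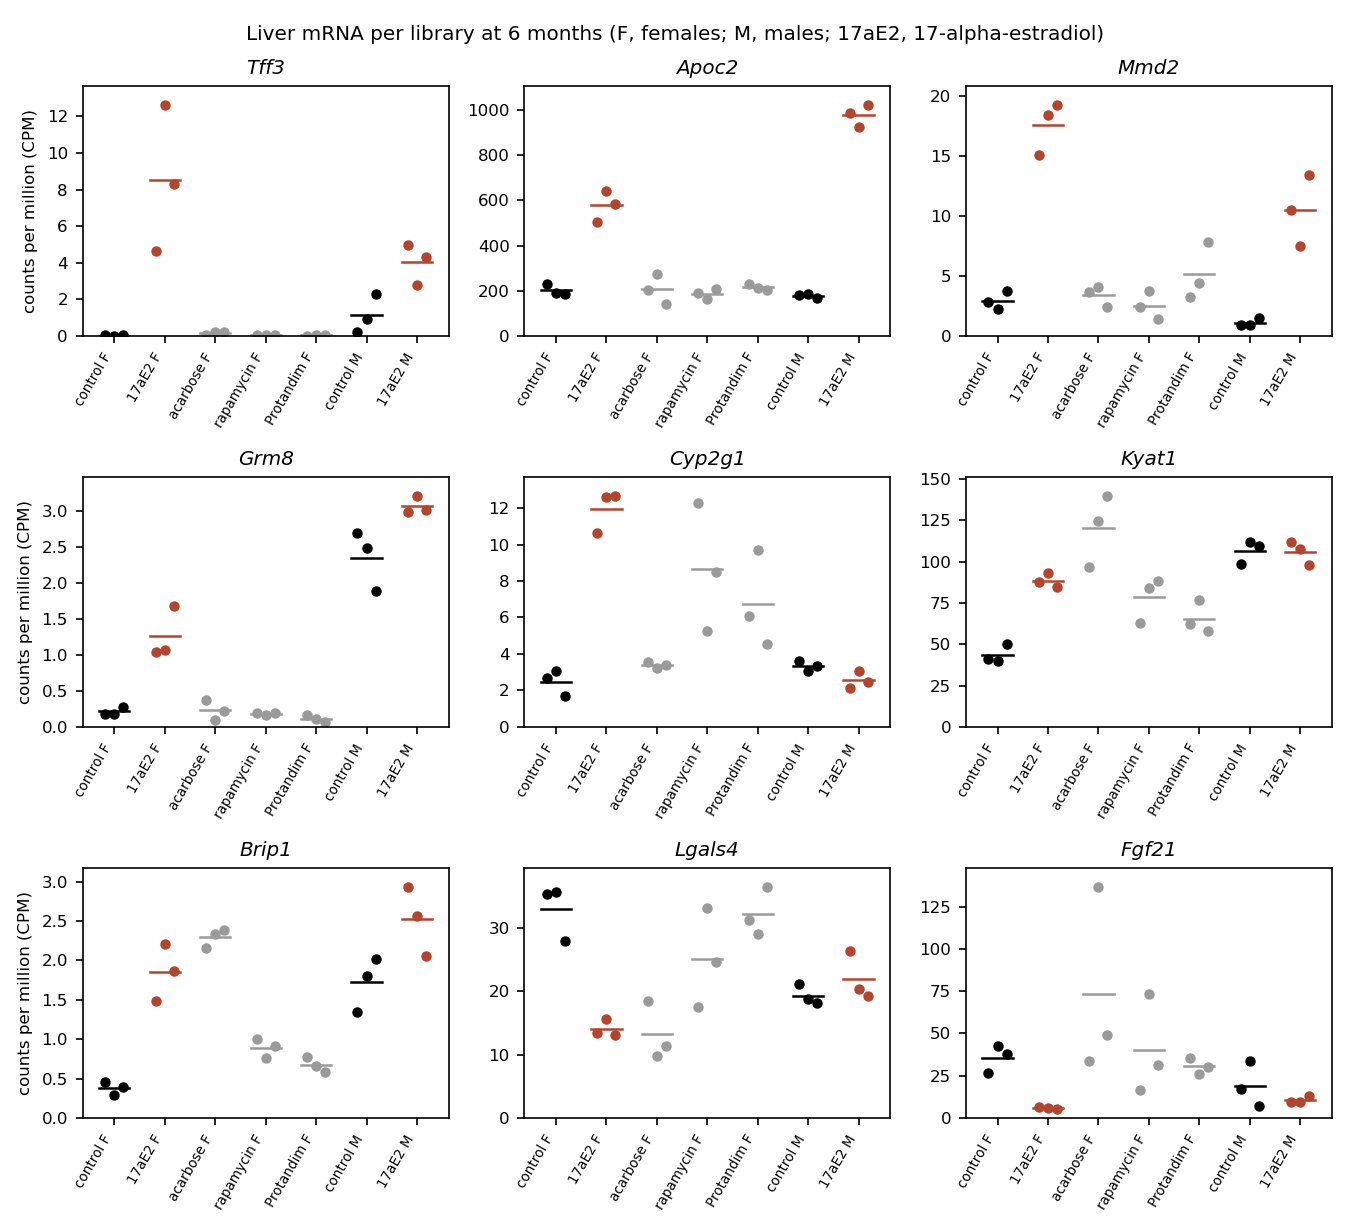
Each point is 1 library, with its CPM on a linear y axis that starts at 0, and each line is the mean of 3; red marks 17-alpha-estradiol, black controls and grey the other compounds. In 17-alpha-estradiol females Tff3, Apoc2, Mmd2 and Grm8 stand above every library of females on acarbose, rapamycin or Protandim, and Fgf21 stands below every one. Brip1, Kyat1, Cyp2g1 and Lgals4 overlap with those libraries.

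The other genes of the stable core are named because they passed throughout, a choice made after their values were seen. Grm8, a metabotropic glutamate receptor gene, was at 1.04, 1.07 and 1.68 CPM in treated and 0.184, 0.186 and 0.283 in control females (2.52 ± 0.35, adjusted p = 1.95e-04). The male levels, 1.88 to 3.21 CPM over both male groups, were higher still. Brip1, which encodes a DNA helicase partner of Brca1, was at 1.49, 2.20 and 1.87 CPM against 0.461, 0.297 and 0.389 (2.26 ± 0.30). Both genes are low in liver.

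Cyp2g1, a cytochrome P450 gene best known from olfactory mucosa, stood at 10.6, 12.6 and 12.7 CPM against 2.67, 3.04 and 1.70 (2.27 ± 0.39, adjusted p = 0.00342). Kyat1, a kynurenine aminotransferase gene of tryptophan breakdown, was at 87.6, 93.2 and 84.8 CPM against 41.2, 39.7 and 49.9 (1.02 ± 0.16), and Zfyve21 at 36.8, 34.8 and 36.6 CPM against 19.7, 18.2 and 21.0 (0.88 ± 0.14). In males Cyp2g1 differed by -0.38 ± 0.39 and Kyat1 by -0.01 ± 0.16, and neither passed. Of the core genes that fell, Lgals4, which encodes the lectin galectin-4, was at 13.4, 15.6 and 13 CPM against 35.4, 35.7 and 28.0 (-1.23 ± 0.22, adjusted p = 0.00375). Nop58, a core protein of box C/D small nucleolar ribonucleoproteins, was at 11.6, 10.9 and 9.71 CPM against 22.9, 19.6 and 20.6 (-0.97 ± 0.16). Smaller falls came with tight replicates: Paip1, a poly(A)-binding protein partner in translation, was at 38.7 to 39.4 CPM against 55.0 to 59.6 (-0.56 ± 0.07, adjusted p = 6.11e-05). Arf4, a small GTPase of the Golgi, fell by 0.75 ± 0.14, Tgoln1, a trans-Golgi membrane protein, by 0.72 ± 0.14, and Elavl1, an RNA-binding protein that stabilises messages, by 0.56 ± 0.10. Zfyve21, Arf4, Tgoln1 and Elavl1 each overlap a gene on the opposite strand, and the strand of counting is not stated.

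Genes known as estrogen targets in liver or reproductive tissue passed in few cases. Of 37 tested, 2 rose, Tff3 among them, and 2 fell (Igfbp2 and Apoa4), beside 1.48% and 1.39% of all genes, and the list's median difference was -0.02 against 0.02 over all genes. Apoa4, an apolipoprotein that follows liver fat, was at 319, 517 and 536 CPM against 2666, 932 and 1427 (-1.87 ± 0.52, adjusted p = 0.0477). Control female 1 held the highest Apoa4 value, and without it the difference was -1.38 (adjusted p = 0.256). Igfbp2, a binding protein for insulin-like growth factors, was at 632, 843 and 881 CPM against 2376, 1544 and 1537 (-1.21 ± 0.28, adjusted p = 0.0239). Tff3 was the 1 member of the list that passed in all 6 fits that left out a library; Igfbp2 passed in 2 of them (without control female 2 or 3) and Apoa4 in 1 (without control female 2).

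Of 33 genes for enzymes that make or modify sex steroids, 3 rose and 0 fell, beside 1.48% and 1.39% of all genes, and the list median was -0.01. Cyp1a2, a P450 that hydroxylates estrogens among many other substrates, was at 710, 2277 and 956 CPM against 359, 541 and 474 (1.52 ± 0.30, adjusted p = 0.00845). Treated female 2 was far above the other treated livers; without it the difference was 0.85 (adjusted p = 0.0823), and without control female 1 it was 1.35 (adjusted p = 0.0770). Hsd3b3 was at 83.0, 119 and 108 CPM against 47.3, 53.9 and 50.7 (1.03 ± 0.22), and Hsd3b2 at 12.9, 20.3 and 14.6 CPM against 5.90, 7.53 and 6.47 (1.27 ± 0.32). Both encode hydroxysteroid dehydrogenases of a family of near-identical copies, so reads may be split between members. Sult1e1, the estrogen sulfotransferase, was at 1.97, 1.29 and 1.93 CPM against 4.52, 0.668 and 5.2, and Cyp17a1, a steroid hydroxylase, at 41.9, 144 and 185 CPM against 97.6, 48.0 and 106. Their groups overlapped and neither passed. The list's count of 3 became 2 without control female 2, control female 3 or treated female 1, 1 without treated female 3 and 0 without control female 1 or treated female 2.

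Fatty acid oxidation and ketone genes fell where they passed. Of 30 tested, 6 fell and 0 rose, beside 1.39% lower and 1.48% higher of all genes. The difference was positive for 1 of the 30, against 7838 of all 14816 genes, and the median was -0.49, against 0.02. The fall was greatest for Fgf21, the fasting hormone of the liver, at 6.43, 5.94 and 5.09 CPM in treated and 26.8, 42.3 and 37.7 CPM in control females (-2.61 ± 0.64, adjusted p = 0.0310). Treated and control values of Fgf21 lay wide apart, yet its adjusted p was between 0.0595 and 0.112 in all 6 fits that left out a library. Acot2 (-1.58 ± 0.42) and Acot1 (-1.39 ± 0.36), neighbouring acyl-CoA thioesterase genes of near-identical sequence, Plin2 (-1.15 ± 0.30), a coat protein of lipid droplets, Acsl1 (-0.66) and Cpt2 (-0.58 ± 0.14), which loads and imports fatty acids for oxidation, made up the rest. The number of members that fell was 6 without control female 2, 3 without treated female 2 and 0 without any other single library. The 6 without control female 2 were not the same genes, since Fgf21 (adjusted p = 0.0595) and Plin2 (adjusted p = 0.0527) lost the call there. Plin2 kept its call only without treated female 2 (adjusted p = 0.0356). Against the females on the other compounds 1 of the 30 passed, as lower, and the list median was -0.15. The adipose marker sums given above were also lower in treated than in control females, and their part in these falls was not tested.

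Among lipogenic genes 3 of 19 rose and 0 fell, beside 1.48% and 1.39% of all genes, with a median of 0.11. Thrsp, a lipogenic nuclear protein, was at 49.97, 33.5 and 31.9 CPM against 3.66, 6.05 and 10.2 (2.53 ± 0.62, adjusted p = 0.0290). Srebf1, the transcription factor that drives fatty acid synthesis genes, was at 216, 172 and 165 CPM against 66.2, 66.3 and 89.4 (1.32 ± 0.35), and Acly, which makes cytosolic acetyl-CoA, at 198, 143 and 159 CPM against 90.7, 103 and 121 (0.67 ± 0.17). No library of these 3 genes crossed between the groups, which held for 422 of the 425 passing genes and 23.7% of all genes. The number of lipogenic genes that rose was 3 without control female 3, 1 without treated female 2 and 0 without any other single library. The 3 without control female 3 held Pklr (adjusted p = 0.0440) in place of Srebf1 (adjusted p = 0.0653). Pklr did not pass in the fit of all libraries (adjusted p = 0.231). Srebf1 lost its call without any 1 of the 6 libraries, with an adjusted p between 0.0653 and 0.187.

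Cholesterol synthesis genes passed in 0 of 22 cases, although 21 of 22 differences were positive and their median was 0.88. Against the females on the other compounds 1 of the 22 passed, as higher, and the median was 0.57. The libraries varied widely within groups. Lss, which closes the sterol ring, was at 116, 28.8 and 63.4 CPM in treated and 22.4, 20.6 and 43.6 CPM in control females (1.26 ± 0.36, adjusted p = 0.0536), so that treated female 2 lay below control female 3. Insig1, which encodes a sterol-sensing protein of the endoplasmic reticulum, was at 559, 191 and 379 CPM against 93.5, 147 and 260 (1.17 ± 0.35, adjusted p = 0.0674), with the same overlap. Among 27 genes of lipoprotein and cholesterol transport 2 rose, Apoc2 among them, and 1 fell (Apoa4), beside 1.48% and 1.39% of all genes. The list median was 0.13. The number that rose was 2 without control female 3 or treated female 2 and 1 without any other single library. The number that fell was 1 without control female 2 or 3 and 0 without any other. Without control female 3 the gene that fell was not Apoa4, whose adjusted p was 0.0753 there.

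**Figure D4:**
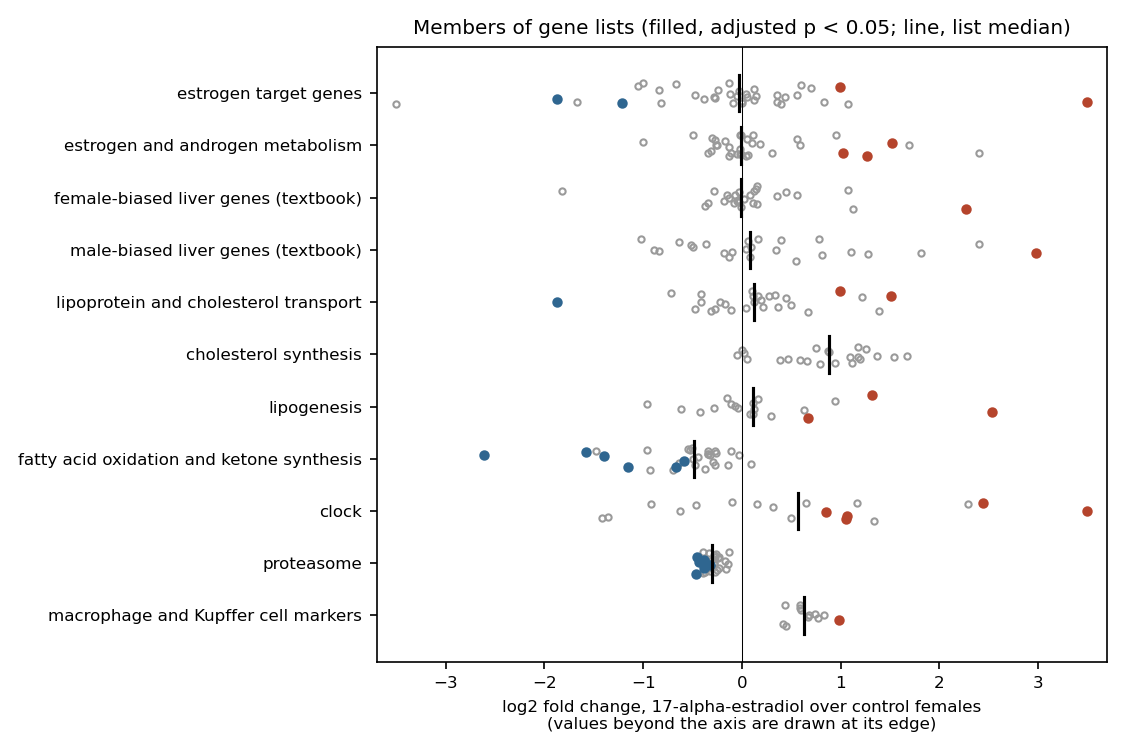
Each circle is a tested member of a gene list, placed by its log2 fold change (17-alpha-estradiol over control females); filled circles passed at an adjusted p under 0.05, red higher and blue lower, and the black line is the list median. The medians run from -0.49 for fatty acid oxidation to 0.88 for cholesterol synthesis, where 0 of 22 members passed.

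Of 18 clock genes 5 passed, all higher, beside 1.48% of all genes, and the list went both ways: 12 differences were positive and 6 negative, with a median of 0.57. Among the negative ones, none of which passed, were those of the activators Arntl (-1.36), Npas2 (-1.41) and Clock (-0.62) and of the repressor Nfil3 (-0.92). Ciart, a repressor in the circadian loop, was at 28.0, 4.75 and 16.4 CPM against 0.707, 1.60 and 1.70 (3.62 ± 0.99, adjusted p = 0.0472), and the period gene Per3 at 61.0, 31.5 and 37.6 CPM against 2.70, 7.87 and 13.4 (2.44 ± 0.64). Per3 overlaps the gene Camta1 on the same strand, so its counts may hold reads of transcripts that span both. Cry2, a cryptochrome that represses the clock's activators, was at 78.8, 72.2 and 73.3 CPM against 30.3, 40.0 and 37.3 (1.06 ± 0.20, adjusted p = 0.00645). Tef, a transcription factor of the clock's output, was at 271, 170 and 236 CPM against 70.9, 123 and 128 (1.07 ± 0.28). Without control female 1 the count was 0, without treated female 2 it was 3, without control female 3 it was 2, and without control female 2, treated female 1 or treated female 3 it was 1. Against the females on the other compounds 1 of the 18 passed, as higher, and the list median was 0.41. Clock transcripts cycle through the day in liver, and a part of the hour of collection in these differences was not tested.

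Of 31 proteasome subunit genes 7 passed, all lower, beside 1.39% of all genes. All 31 differences were negative and small, with a median of -0.31. Psmd1, a scaffold of the regulatory particle, was at 101, 92.5 and 89.0 CPM against 129, 108 and 131 (-0.38 ± 0.09, adjusted p = 0.0267), and Psmc1, an ATPase of its base, at 138, 143 and 130 CPM against 195, 167 and 193 (-0.43 ± 0.11). Psma3, a subunit of the catalytic core, was at 76.1 to 81.6 CPM against 95.4 to 113. The count stayed at 7 without control female 2, was 1 without treated female 1 and 0 without any other single library. In males the list's median was -0.03. Against the females on the other compounds it was -0.21, and 0 of the 31 passed.

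Of 18 growth hormone genes, Igfbp2 fell and no other passed, beside 1.39% lower of all genes. The hormone's receptor Ghr was at 473, 398 and 438 CPM against 305, 360 and 439 (0.24 ± 0.16). Igf1 differed by 0.12 ± 0.15 and the prolactin receptor Prlr by 0.14 ± 0.23. Lists of sex-biased genes were taken from control females and males of 12 months, whose libraries are not in this comparison and in which 393 of 13639 genes (2.88%) passed between the sexes. That count was 231 without female 1, 261 without female 2, 184 without male 2 and 253 without male 3 of 12 months. Of 141 genes at least 2-fold higher in those males, 8 rose and 1 fell with 17-alpha-estradiol in females (median 0.16), beside 1.48% higher and 1.39% lower of all genes tested. Of 169 genes at least 2-fold higher in those females, 1 rose and 2 fell (median 0.06). The male-biased genes that rose included Mup20, a major urinary protein gene, at 110, 164 and 55.0 CPM against 16.5, 7.65 and 17.5 (2.98 ± 0.76, adjusted p = 0.0339). Grm8, Chrm3 (2.39 ± 0.51), Hsd3b2, Hsd3b3, Aifm3, Arsa and Mcm10 were the others, and the Mup genes are near-identical copies. Mup20 lost its call without any 1 of the 6 libraries. The 8 became 1 without control female 1, 4 without control female 2, 5 without control female 3, 4 without treated female 1, 2 without treated female 2 and 1 without treated female 3. Of the female-biased list 2 rose and 2 fell without control female 2, 0 rose and 2 fell without treated female 2, and 0 passed without any other single library.

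Further genes with the largest passing differences came from varied functions. Dclk3, a kinase gene, was at 19.4, 17.8 and 21.0 CPM against 2.52, 7.79 and 5.52 (1.88 ± 0.41), and Kcnk5, a potassium channel gene, at 59.7, 80.3 and 50.1 CPM against 17.8, 20.8 and 25.1 (1.58 ± 0.35). Ncam2, a cell adhesion gene, rose by 1.73 ± 0.46 and Fam117a by 1.61 ± 0.35. Osbpl3, which encodes an oxysterol-binding protein relative, was at 20.2, 30.0 and 22.6 CPM against 10.4, 7.61 and 7.15 (1.53 ± 0.37). Of the genes that fell, Clpx, the unfoldase of a mitochondrial protease, was at 120, 217 and 129 CPM against 561, 359 and 351 (-1.45 ± 0.34). Chka, a choline kinase gene, was at 23.3, 29.0 and 36.2 CPM against 89.5, 66.6 and 57.8 (-1.27 ± 0.29), and Hes1, a Notch effector, at 9.64, 4.69 and 12.1 CPM against 14.7, 25.4 and 19.9 (-1.19 ± 0.29). Rab30 (-1.29 ± 0.34), Arl4a (-1.25 ± 0.29) and Shld2 (-1.20 ± 0.30) also fell. Of the 6 fits that left out a library, Dclk3 passed in 4, Kcnk5, Clpx, Chka and Arl4a in 3, Ncam2, Fam117a and Rab30 in 2, Hes1 and Shld2 in 1 and Osbpl3 in 0, with the same sign throughout.

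Macrophage and Kupffer cell markers were higher in every treated library than in every control library when summed, at 498, 485 and 449 CPM against 280, 376 and 201. All 12 differences were positive, with a median of 0.63, and 1 passed, beside 1.48% higher of all genes. It was Cd5l, a secreted macrophage protein, at 108, 81.5 and 79.6 CPM against 36.6, 68.4 and 31.0 (0.99 ± 0.25, adjusted p = 0.0315). Csf1r, the receptor that macrophages need to survive, was at 65.5, 54.1 and 62.7 CPM against 36.4, 46.7 and 23.5 (0.78 ± 0.24, adjusted p = 0.0750). Against the females on the other compounds 0 of the 12 passed, and the list median was 0.26. In whole tissue more cells of a type and more RNA per cell cannot be told apart. Of the 6 fits that left out a library, Cd5l passed in 1, that without control female 2, where 3 of the 12 markers passed. It also lost its call without the low-count filter, without the 6 libraries with markers of another tissue and in the fits of females or of the compared groups alone. Lymphocyte markers summed to 31.3 to 44.7 CPM against 22.2 to 29.8, and 0 of 14 passed; endothelial (0 of 10), stellate (0 of 11) and bile duct (0 of 8) markers overlapped between the groups when summed.

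Set against the 9 females on acarbose, rapamycin or Protandim, a comparator with no control library in it, 328 genes passed (2.21% of those tested), 190 higher (1.28%) and 138 lower (0.931%). This comparison shares the 17-alpha-estradiol libraries with the first, so calls in both are not independent. The 328 became 26, 89 and 29 without treated females 1, 2 and 3; 883, 192 and 187 without acarbose females 1, 2 and 3; and 173 without rapamycin female 3. Tff3 differed by 7.16 ± 0.58, Grm8 by 2.87 ± 0.25, Apoc2 by 1.51 ± 0.14, Mmd2 by 2.32 ± 0.35 and Osbpl3 by 2.21 ± 0.28, and each passed in every fit that gave it an adjusted p. Osbpl3 ranged from 2.00 to 10.7 CPM over the 9 other treated females, all below the lowest 17-alpha-estradiol library. Fgf21 (-2.95 ± 0.60) and Igfbp2 (-1.04 ± 0.24) were also lower, but lost the call without any 1 of the 17-alpha-estradiol females. Kyat1 differed by 0.05 ± 0.13 (adjusted p = 0.874) and Brip1 by 0.74 ± 0.21 (adjusted p = 0.0595). Their ranges over the other treated females, 57.9 to 140 CPM and 0.580 to 2.39 CPM, took in the levels of the 17-alpha-estradiol females. Of the other core genes, Zfyve21, Lgals4 and Tgoln1 did not pass either. Lgals4 in acarbose females was at 18.5, 9.80 and 11.4 CPM. Cyp2g1 passed (adjusted p = 0.0492), but in only 7 of 19 alternatives, and rapamycin female 1 held 12.3 CPM. Elavl1 passed in 11 of the 19, Arf4 in 14, Nop58 in 15 and Paip1 in 18.

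The same treatment in males gave few calls. In males 9 genes were higher and 0 lower, 0.0607% of those tested, with 1171 at an unadjusted p under 0.05 and 59 by DESeq2. Male 2 of the 17-alpha-estradiol group held 35628 counts over 10 kidney markers against at most 47 in the other treated and control males, and without it 3 genes passed. Without control males 1, 2 and 3 the counts were 2, 2 and 3, and without treated males 1 and 3 they were 79 and 79. Of the 425 genes passing in females, 57.9% had the same sign in males, beside 55.3% of all genes. Tff3 in males was at 4.99, 2.78 and 4.30 CPM against 0.219, 0.920 and 2.29 CPM, higher in 3 of 3 treated males than in any control male, with a difference of 1.8 ± 0.65 that did not pass (adjusted p = 0.419). Treated libraries of both sexes held 2.78 to 12.6 CPM, and every control male was above every control female.

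A direct test of the sex difference was passed by 8 genes (0.0540% of those tested), of which 2 (0.0135%) had a more positive difference in males and 6 (0.0405%) in females. For Tff3 the male minus female difference was -6.49 ± 1.24 (adjusted p = 0.0413). Tk1, which encodes thymidine kinase, rose in females from 9.62, 16.2 and 11.8 CPM in controls to 32.7, 34.5 and 33.9 CPM (1.43 ± 0.25) and differed by -0.49 ± 0.24 in males. Tk1 overlaps the genes Afmid and Gm20708 on the opposite strand, and the strand of counting is not stated. Picalm, a clathrin assembly protein gene, fell in females, from 81.7, 82.6 and 90.2 CPM to 60.9, 54.2 and 59.6 CPM (-0.54 ± 0.09), against 0.19 ± 0.09 in males. Without treated male 2, the library with kidney markers, 0 of the 8 passed. Over all 18 alternatives run, that one included, the difference lay between -6.97 and -5.45 for Tff3, between -2.14 and -1.73 for Tk1 and between 0.67 and 0.82 for Picalm. The count was also 0 without treated male 3, control male 3 or any 1 of the treated females, 1 without control female 1 or 3, 2 without treated male 1, 5 without control female 2 and 44 without control male 2. DESeq2 called 108, and 1618 genes had an unadjusted p under 0.05.

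**Figure D5:**
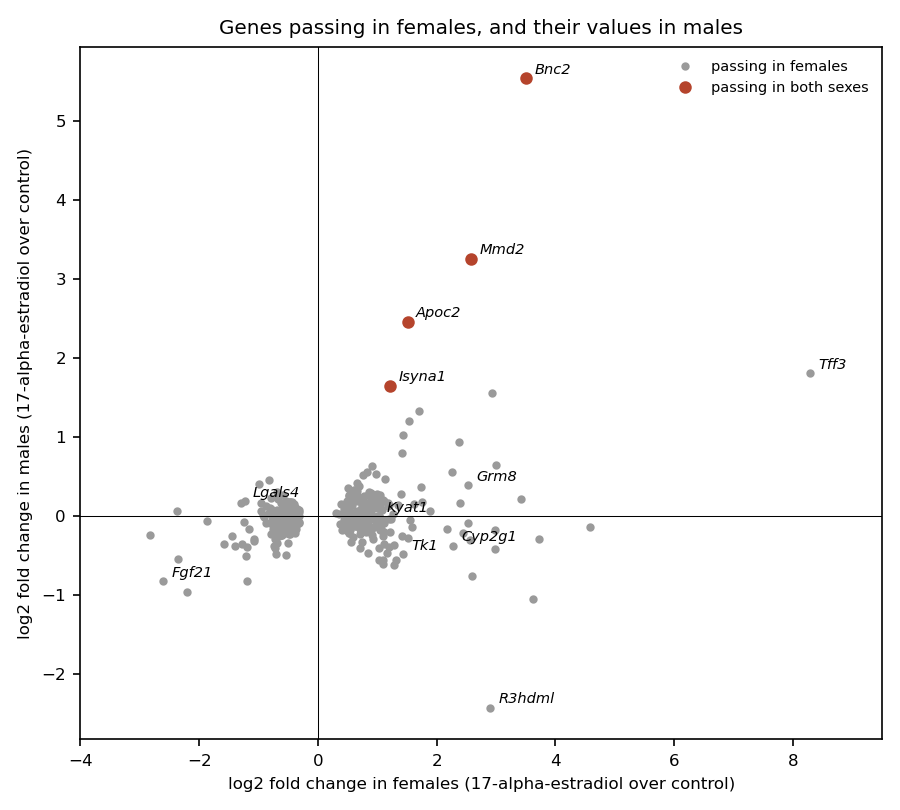
Each point is 1 of the 425 genes passing in females, with its log2 fold change in females on the x axis and in males on the y axis; red points passed in both sexes. The 4 red genes, Apoc2, Mmd2, Isyna1 and Bnc2, lie at the upper right, Tff3 lies at 8.29 in females and 1.8 in males, and most other points lie near 0 in males.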

How the data were processed

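Liver RNA of 3 17-alpha-estradiol and 3 control females was compared, with 36 libraries of 6 months in the fit. The deposited table holds raw counts of reads per gene. Per the submitters' processing notes, the tools were bcl2fastq 1.8.4, Trimmomatic 0.32, STAR 2.5.2b and featureCounts 1.5, with GRCm38 (mm10); the strand of counting and the handling of reads shared by near-identical genes are not given in the sources used here. Depth was 21876573 to 37778510 counts per library. The 78 columns were matched to samples by title, and 796 of 802 list symbols to the table.

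The test was that of edgeR 4.0.16 in R 4.3.3: filterByExpr on the groups, TMM scaling, a robust quasi-likelihood fit with 1 coefficient per group, two-sided tests, and Benjamini-Hochberg adjustment over all 14816 genes, with a threshold of 0.05. All groups shared 1 estimate of the spread. A difference is log2 (17-alpha-estradiol over control) ± SE from the F statistic, with n = 3 libraries per group, each from 1 mouse. CPM of single genes are scaled by TMM; summed marker CPM are per 1000000 counts of the library, without that scaling. The fits were tested on simulated counts. Gene coordinates come from GENCODE M21 (GRCm38).

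The comparisons, the 46 gene lists and the rules were chosen with earlier results of these data known. The rule for names took, for each direction, the 12 largest passing differences with a mean log2 CPM of at least 1, all treated libraries on the same side of the control mean and no clone name; in each list the 3 smallest p; 8 receptors and related genes; and up to 5 per direction for the sex difference. The core genes that passed throughout, Bnc2, Osbpl3, the neighbours of Apoc2 and Tff3, Cyp17a1 and Sult1e1, and single members of lists or sex-biased sets, were named after their values were seen. Lists are described by counts and medians, without a test. Results of some genes that met the rule are left out and not given here. Alternatives were scaling by RLE, a fit without the low-count filter, a block by replicate number, leaving out 6 libraries with markers of another tissue, fits of females or of the compared groups alone, DESeq2 1.42.0 and leaving out each library.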

Additional observations from a re-analysis of the deposited data

Results flagged for a closer look

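For 8 genes the effect of 17-alpha-estradiol differed between the sexes by the interaction test of edgeR. The male minus female difference, on the log2 scale, was 0.73 for Picalm, 0.53 for Paip1, -0.56 for Plcb3, -1.12 for Mum1, -1.71 for Plekhg6, -1.92 for Tk1, -5.33 for R3hdml and -6.49 for Tff3, with adjusted p from 0.0369 to 0.0443. In 5 of them (Mum1, Tk1, Plekhg6, Plcb3 and R3hdml) the female estimate was positive and the male estimate negative, and in Picalm the order was opposite. R3hdml rested on low levels, with group means of 1.23 and 0.162 CPM in treated and control females and 0.270 and 1.47 CPM in males. In the fit without 6 libraries with markers of another tissue, treated male 2 among them, 0 genes passed.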

How the results depend on the processing

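The count of 425 genes was 20 to 279 when single libraries were left out, 128 without the filter on low counts, 145 with only female libraries in the fit, 108 with only the compared groups, 807 with DESeq2, 435 with RLE scaling and 322 without the 6 libraries with markers of another tissue. The comparison with the other treated females (328) gave 26 to 883 without single libraries, 142 without the filter, 218 without the 6 libraries, 66 with females only, 28 with the compared groups only and 735 with DESeq2. The sex difference (8) gave 0 to 44 without single libraries, 5 with RLE scaling, 0 without the filter, 0 without the 6 libraries, 3 with the compared groups only and 108 with DESeq2. The male comparison (9) gave 2 to 79 without single libraries, 3 without the 6 libraries and 59 with DESeq2. The sexes at 12 months (393) gave 184 to 280 without single libraries and 618 with DESeq2. The cause of these shifts was not tested. With a replicate block the counts were 398, 394, 10, 5 and 359 in the order female, other treated females, sex difference, males and 12 months. Deviations from the group mean correlated at -0.01, -0.20 and -0.10 between same-numbered treated and control females. Between differently numbered ones they correlated at -0.07 to 0.18. With 3 libraries per group these values cannot decide whether the numbers pair the mice. No named difference changed sign under any alternative while called. With 3 libraries per group and a spread pooled over the fit, small changes of variable genes may not have been detectable.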

Other observations

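The interferon response, protein folding and heat shock groups, not described above, had at most 1 member passing in 17-alpha-estradiol females, while most of their differences had 1 sign. Interferon response genes were higher in 23 of 25 cases, with a median log2 difference of 0.50. Against the females on the other compounds their median was 0.04, and in 17-alpha-estradiol against control males it was 0.45. Xaf1, an interferon-induced gene, was at 5.02, 11.4 and 7.24 CPM in treated and 1.90, 1.60 and 2.69 CPM in control females (1.93 ± 0.62, adjusted p = 0.0828), and Irf7, a factor that amplifies the response, at 29.3, 63.9 and 34.6 CPM against 14.9, 16.4 and 28.9 (1.09 ± 0.48, adjusted p = 0.234). Treated female 2 was the highest library for both. Genes of protein folding in the endoplasmic reticulum were lower in 19 of 20 cases, with a median of -0.30 (-0.32 against the females on the other compounds). In males their median was -0.53. Heat shock genes were lower in 14 of 16 cases, with a median of -0.26 (-0.07 in males), and 1 passed, beside 1.39% lower of all genes. It was Hspa4, a cochaperone of Hsp70 (-0.47 ± 0.10, adjusted p = 0.0121). Hspa4 did not pass without control female 1, control female 3 or treated female 3, nor in the fits of females or of the compared groups alone.

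Cytosolic ribosomal protein genes had positive differences in 43 of 49 cases with a median of 0.12, and nuclear genes of the respiratory chain in 25 of 44 with a median of 0.01. Against the females on the other compounds these medians were -0.07 and -0.07. Acute phase, coagulation, glycolysis, urea cycle and one-carbon genes had 0 members passing and medians between 0.01 and 0.09. Against the females on the other compounds the medians were 0.42 for urea cycle genes, 0.38 for one-carbon genes and -0.05 to 0.14 for the rest. In that comparison 1 one-carbon, 1 acute phase and 1 coagulation gene passed, each as higher, beside 1.28% of all genes. Bile acid genes had 1 of 25 passing, as lower, beside 1.39% of all genes. It was Abcb4, the phospholipid exporter of the bile canaliculus, at 497, 577 and 534 CPM against 878, 702 and 777 (-0.55 ± 0.13, adjusted p = 0.0239).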
